A study of Mus musculus with 8 samples.

Results

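The ER membrane complex (EMC) was examined in primary mouse chondrocytes given a miR-204 mimic, with Mmgt1, the gene of subunit 5, at its centre. The 10 genes were taken by symbol from a table of 24067 genes: Mmgt1, Emc1, Emc2, Emc3, Emc4, Emc6, Emc7, Emc8, Emc9 and Emc10. All 10 reached the mean of 1 FPKM that 11612 genes of the table reached. FPKM corrects a gene's fragments for the length of its transcript and for the size of the library, so levels of different genes can be set side by side. Mmgt1 was chosen on its own lower FPKM in this comparison, so its values are described here without a test. The other 9 genes were chosen as named subunits of the same complex.

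The EMC sits in the membrane of the endoplasmic reticulum and places transmembrane segments of new proteins into the lipid layer, after or during translation. It handles tail-anchored proteins and the first segments of some multipass proteins, and works beside the Sec61 channel, the main route for secreted and membrane proteins. Chondrocytes pass large amounts of collagen and proteoglycan through this compartment. MicroRNAs such as miR-204 lower transcripts that pair with their seed, mostly in the 3′ UTR.

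The cells were articular chondrocytes from femoral condyles and tibial plateaus of ICR mice aged 5 days. They were grown under 3% oxygen and received 50 nM of either a control small RNA (miR-Ctrl) or a miR-204 mimic. Transfection ran for 24 h and RNA was taken 24 h after it ended. Each group had 4 libraries, numbered 1 to 4. Nothing in the labels says that the libraries came from separate cultures or animals, so a p-value here reflects the spread of these 8 libraries, which may be technical. A mimic adds more of the small RNA than the cell makes, and the labels do not name the arm of miR-204 that it carries.

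The labelled cell type matched its markers: all 9 chondrocyte markers passed the filter, and Col2a1, the main collagen of cartilage, held 7836 to 27530 FPKM. The 4 endothelial markers and 3 of 4 macrophage markers, among them Ptprc, were under 1 FPKM in every library. Markers of other cell types were not absent. Summed FPKM ran from 5.22 to 23.6 for osteoblast markers, of which 3 of 4 passed the filter. It ran from 0.395 to 31.8 for adipocyte markers and from 134 to 325 for smooth muscle and pericyte markers. Both replicate 2 libraries stood apart from the other 6: the first principal component, with 58.4% of the variance, set them at 0.594 and 0.545, and the other libraries lay at 0.0317 or below. Their relative depth, an estimate since read totals are unknown, was the lowest, at 0.772 and 0.798 of that of miR-Ctrl replicate 1. The remaining libraries stood at 0.929 to 0.961 of it. Both replicate 2 libraries had the highest summed FPKM, 490818 and 483721, against 416560 to 452710 elsewhere. They also held 26618 and 16455 FPKM of Saa3, an acute-phase protein of inflammation, against 17.9 to 225 elsewhere. Libraries of equal number resembled each other, so values within pairs of equal number are given beside the group values.

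The mimic's guide strand, taken as miR-204-5p, and the matching stretches in the 3′ UTRs are shown first, because they separate the subunits by sequence alone. The microRNA sequence is that of RefSeq, with the seed, bases 2 to 8, in capitals, and each gene sequence ends with the matching letters in capitals.
mmu-miR-204-5p: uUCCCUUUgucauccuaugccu
Mmgt1, 8mer: aactctataggtgtAAAGGGAA
Emc7, 8mer: gaaagagatttagaAAAGGGAA
Emc6, 7mer-m8: acgcctagtaagtccAAAGGGA
Emc8, first 7mer-A1: tagtaggttagccggAAGGGAA
Emc8, second 7mer-A1: ccaactaggccccttAAGGGAA
Ssr3, first 8mer: aattaaatgaattgAAAGGGAA
Ssr3, second 8mer: caagaactttctgtAAAGGGAA

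The letters searched on the transcript strand were AAAGGGAA for an 8mer, AAAGGGA for a 7mer-m8, AAGGGAA for a 7mer-A1 and AAGGGA for a 6mer. The shorter ones lie inside the longer ones, so each place was counted once, under its longest match. The Mmgt1 8mer lies at chrX:56587924-56587931 of mm10 on the minus strand, in exon 4 of 4, at base 1213 of a 3′ UTR of 3632 bases. Emc7 carries the same 8 letters at chr2:112470728-112470735 on the plus strand, in exon 5 of 5, at base 3595 of a 3′ UTR of 5029 bases. The Emc6 match is at chr11:73176077-73176083, minus strand, exon 2 of 2, base 288 of 852. Those of Emc8 are at chr8:120658013-120658019 and chr8:120654249-120654255, minus strand, exon 5 of 5, bases 70 and 3834 of 4175.

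No match was found in the 3′ UTRs of Emc1 (3205 bases), Emc2 (280), Emc3 (1029), Emc4 (308), Emc9 (41) and Emc10 (935). An 8mer was the best match in 6.65% of the 11192 tested genes with an annotated 3′ UTR. It was the best match in 15.1% of the 1174 genes whose 3′ UTR was 2906 to 4540 bases long, near the length of that of Mmgt1. The Mmgt1 3′ UTR also contains the Mir5116 hairpin at chrX:56587852-56587914, which the table lists at 0 in all 8 libraries. A match of letters is a description and was not tested as a binding site in these cells.

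**Figure D1:**
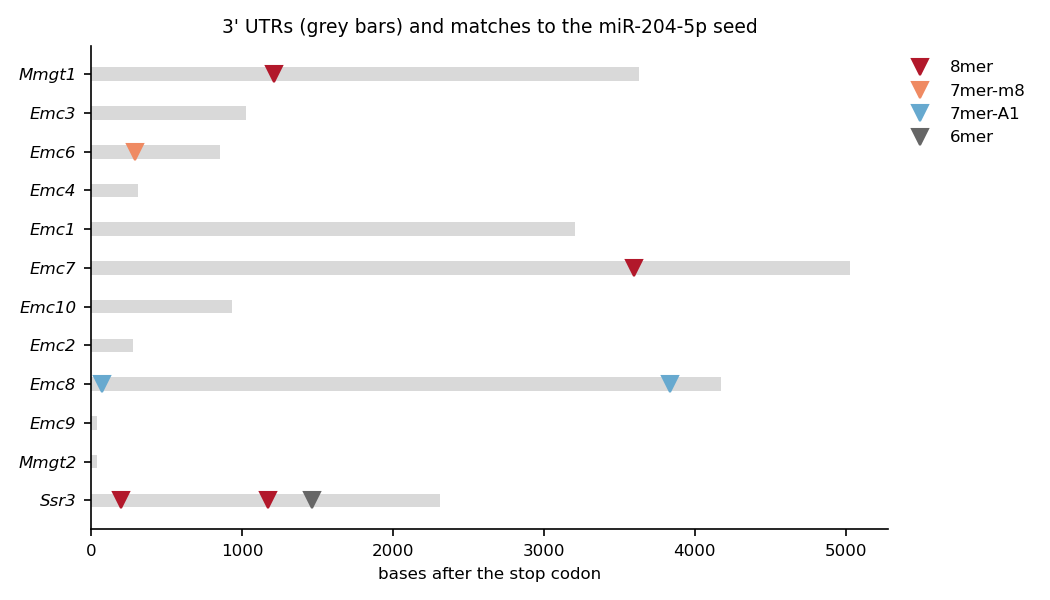
3′ UTRs of the 10 EMC genes, of the Mmgt1 paralog Mmgt2 and of Ssr3 as grey bars, in bases after the stop codon, with triangles at matches to the miR-204-5p seed coloured by length of match. Mmgt1 and Emc7 are the EMC genes with an 8mer, at bases 1213 and 3595.

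Mmgt1 (gene ID 236792, chrX:56585512-56598069, minus strand) encodes EMC5, a small subunit of the membrane core that was first named as a magnesium transporter. Its FPKM was 13.4, 11.9, 11.3 and 12.8 in miR-Ctrl replicates 1 to 4, and 7.21, 7.84, 6.78 and 7.50 in miR-204 replicates 1 to 4. Every miR-204 library lay below every miR-Ctrl library. Means were 12.4 ± 0.921 with miR-Ctrl and 7.33 ± 0.446 with miR-204 (SD, n = 4 each), so the mean fell by 40.7%. Within pairs of equal number the miR-204 value was 0.538, 0.656, 0.599 and 0.585 of the miR-Ctrl value, so the difference was smallest in pair 2.

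On the log2(FPKM + 1) scale, which understates changes of low genes, the Mmgt1 difference was -0.68 with a standard error of 0.069. With the replicate number as a block the standard error was 0.050. Centring the libraries on their medians gave -0.75, and leaving out both replicate 2 libraries gave -0.73. Mmgt1 was 1 of the 183 genes, 1.58% of those tested, whose libraries were lower with miR-204 without overlap. Since the gene was chosen on this difference, its place in that count says nothing further.

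In bulk RNA, fewer cells of a type and less RNA per cell cannot be told apart. Summed FPKM of the chondrocyte markers overlapped between groups, at 12252 to 39667 with miR-Ctrl and 12278 to 31452 with miR-204. Within pairs that sum was lower with miR-204 in 3 of 4, at 0.885, 1.00, 0.793 and 0.840 of the miR-Ctrl value. Of the 9 markers, 4 were lower in all 4 pairs, Col2a1, Sox9, Hapln1 and Comp. The share of all genes lower in all 4 pairs was not counted. Being lower in all 4 pairs is therefore a description, here and below. With the block limma called neither Col2a1 (adjusted p = 0.0594) nor Sox9 (adjusted p = 0.0599), and with centred libraries as well Sox9 fell by 0.19 on the log2 scale (adjusted p = 0.0217). Acan was lower in 3 of 4 pairs (adjusted p = 0.0773 with the block).

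Sums of 2 other marker lists were higher with miR-204 in 4 of 4 pairs and did not overlap. The 4 smooth muscle and pericyte markers summed to 134 to 170 with miR-Ctrl and 230 to 325 with miR-204, with Myh11 and Rgs5 under 1 FPKM in every library. The macrophage markers summed to 0.649 to 2.58 and 2.82 to 5.05. Most of that sum was Cd68, at 0.545 to 2.22 with miR-Ctrl and 2.76 to 4.75 with miR-204. Emr1 of the same list, under 1 FPKM in every library, was lower with miR-204 in all 4 pairs. The osteoblast sum was also higher in 4 of 4 pairs, but its groups overlapped, at 5.22 to 22.8 and 7.05 to 23.6. The part of any of these marker shifts in the Mmgt1 values was not tested.

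**Figure D2:**
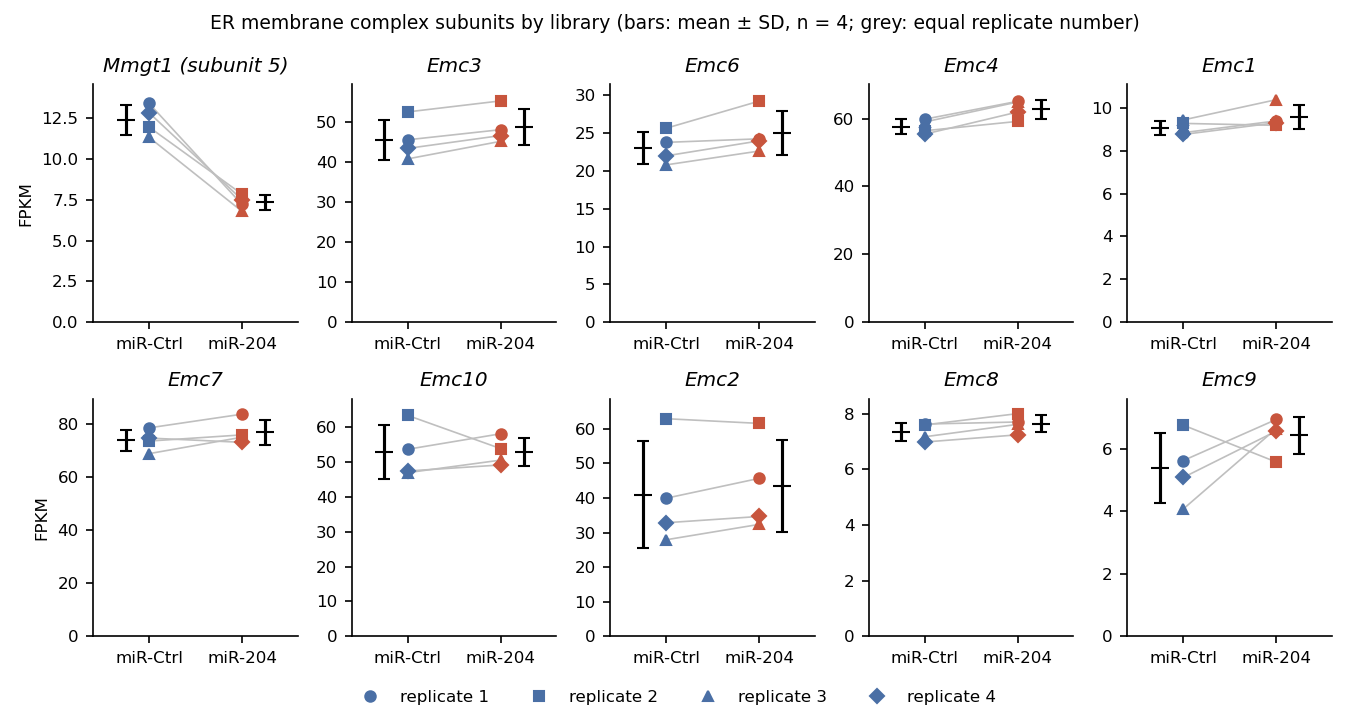
FPKM of the 10 EMC genes in each library, with miR-Ctrl in blue and miR-204 in red, 1 marker shape per replicate number, grey lines joining equal numbers and black bars for mean ± SD (n = 4). Mmgt1 alone among the 10 shows groups that do not overlap, at 11.3 to 13.4 against 6.78 to 7.84 FPKM.

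Across the other 9 subunits, no gene changed past the threshold. At an adjusted p under 0.05, limma called 0 of 9 lower, beside 0.181% of all genes, and 0 of 9 higher, beside 0.0258%. None of the 9 had an unadjusted p under 0.05, and their adjusted p-values ran from 0.601 to 0.994. With the replicate block, limma again called 0 of 9 in either direction, beside 2.83% of all genes called lower and 12.4% called higher. In that fit adjusted p-values ran from 0.0609 to 0.934, and 3 subunits, Emc3, Emc4 and Emc6, had an unadjusted p under 0.05. None of the 9 had it once the libraries were centred as well. The share of all genes under an unadjusted 0.05 was not counted in any fit. Counts under it, here and below, are therefore not read as a result.

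The estimates of all 9 lay above 0, but 74.1% of all genes did so too, and with centred or quantile-normalized libraries 6 of 9 lay above 0. Their median log2 difference was 0.098, against 0.064 over all genes tested. Values were higher with miR-204 in all 4 pairs for 4 of the 9, Emc3, Emc4, Emc6 and Emc8, beside 33.9% of all genes. None of the 9 showed groups without overlap, beside 1.58% of all genes that were lower without overlap. The share higher without overlap was not counted, so nothing is read from that 0 of 9.

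The intervals limit how far a subunit could have dropped unseen. The lowest 95% bound was -0.54, for Emc2, which is a ratio of 0.690 on the FPKM + 1 scale, and 8 of 9 lower bounds lay above -0.3. With the block the lowest bound was -0.14, for Emc10. When both replicate 2 libraries were left out of the paired fit, a choice made after seeing the data, limma called 3 of 9 higher, beside 23.9% of all genes in that fit. These were Emc2 at 0.16 (adjusted p = 0.0346), Emc4 at 0.14 (adjusted p = 0.0253) and Emc9 at 0.39 (adjusted p = 0.0170). Without the block and without those libraries it called 0 of 9.

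Among the membrane subunits, Emc3 (gene ID 66087, chr6:113514874-113531652) and Emc6 (gene ID 66048, chr11:73175519-73177037) form the insertase core together with the product of Mmgt1. Emc3 stood at 45.6, 52.6, 40.8 and 43.5 FPKM in miR-Ctrl replicates 1 to 4 and 48.1, 55.3, 45.2 and 46.7 in miR-204 replicates 1 to 4. Its groups overlapped, and replicate 2 was highest in both. The log2 difference was 0.098 ± 0.095 (SE), with a 95% interval of -0.12 to 0.32 and an adjusted p of 0.823 by limma. With the block the interval was 0.018 to 0.18 and the adjusted p was 0.0906.

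Emc6, which carries the 7mer-m8 printed above, measured 23.8, 25.6, 20.8 and 21.99 FPKM with miR-Ctrl and 24.2, 29.2, 22.6 and 24.0 with miR-204. Each miR-204 value exceeded that of its pair, while the groups overlapped. Its log2 difference was 0.11 ± 0.095 (SE), with an interval of -0.11 to 0.33 (adjusted p = 0.799 by limma, 0.0955 with the block). Of the 946 tested genes whose best match was a 7mer-m8, with a median of 0.021, 23.9% lay at or above Emc6.

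Emc4 (gene ID 68032, chr2:112363011-112368027), a membrane subunit beside that core, was the most even of the abundant subunits. Its FPKM was 59.8, 56.4, 59.0 and 55.4 with miR-Ctrl and 65.1, 59.2, 64.9 and 61.9 with miR-204, higher in each pair, with the groups overlapping only through miR-204 replicate 2. This gave a log2 difference of 0.12 ± 0.055 (SE), with an interval of -0.0059 to 0.25 (adjusted p = 0.601 by limma, 0.0609 with the block).

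Emc1 (gene ID 230866, chr4:139352587-139378730) encodes the large subunit whose lumenal part caps the complex. Its FPKM was 8.84, 9.27, 9.43 and 8.75 with miR-Ctrl and 9.39, 9.18, 10.4 and 9.30 with miR-204, with overlapping groups and a lower miR-204 value in pair 2. Emc1 differed by a log2 of 0.067 ± 0.057 (SE), interval -0.063 to 0.20 (adjusted p = 0.795 by limma). Emc1 values are uncertain, because 33.5% of its transcript, mostly the stretch antisense to 2700016F22Rik, is at least 95% identical over 100 or more bases to 1 or more of 59 other genes.

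Of the lumenal subunits, Emc7 (gene ID 73024, chr2:112454997-112472162) holds an 8mer as Mmgt1 does. Emc7 was the most abundant subunit, at 78.5, 73.6, 68.8 and 74.7 FPKM with miR-Ctrl and 83.7, 75.9, 75.01 and 73.1 with miR-204. Higher values were found with miR-204 in 3 of 4 pairs, and the groups overlapped. Emc7 had a log2 difference of 0.057 ± 0.065 (SE), with an interval of -0.093 to 0.21 (adjusted p = 0.854 by limma). Of the 744 tested genes with an 8mer, with a median of -0.010 and quartiles of -0.14 and 0.071, 220 (29.6%) lay at or above Emc7. The median of the 7281 genes without any match was 0.078. Which 3′ UTR ends these cells use was not measured here.

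Emc10 (gene ID 69683, chr7:44489937-44496529), the other lumenal subunit, was the one nearest to no difference. It measured 53.5, 63.2, 46.8 and 47.3 FPKM with miR-Ctrl and 58.0, 53.7, 50.4 and 49.0 with miR-204. Pair 2 ran downward and the other 3 pairs upward. The log2 difference was 0.0093 ± 0.11 (SE), interval -0.23 to 0.25 (adjusted p = 0.994 by limma), and its sign turned when the libraries were centred, at -0.055.

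On the cytosolic side, Emc2 (gene ID 66736, chr15:43477229-43527763), a scaffold built of helical repeats, varied most between libraries. Its FPKM was 39.9, 62.9, 27.9 and 32.9 with miR-Ctrl and 45.7, 61.6, 32.4 and 34.7 with miR-204. The coefficient of variation was 37.8% in miR-Ctrl and 30.6% in miR-204, against 3.62% and 4.46% for Emc4, and replicate 2 was highest in both groups. For Emc2 the log2 difference was 0.11 ± 0.28 (SE), interval -0.54 to 0.76 (adjusted p = 0.958 by limma). With the block, which removes the shared replicate level, the interval narrowed to -0.0088 to 0.23 (adjusted p = 0.165). Without both replicate 2 libraries the means were 33.6 ± 6.04 and 37.6 ± 7.11 (SD, n = 3 each).

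Emc8 and Emc9 are paralogs that take the same cytosolic place in the complex, so each complex is thought to hold one or the other. Emc8 (gene ID 18117, chr8:120653914-120668573) stood at 7.62, 7.59, 7.17 and 6.98 FPKM with miR-Ctrl and 7.70, 7.997, 7.61 and 7.24 with miR-204. Each miR-204 value lay above that of its miR-Ctrl partner, and the groups overlapped. The log2 difference was 0.050 ± 0.054 (SE), interval -0.074 to 0.18 (adjusted p = 0.845 by limma). Of the 855 tested genes whose best match was a 7mer-A1, with a median of 0.045, 48.1% lay at or above Emc8. A stretch of 323 bases is shared with Gm27021 on the same strand.

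Emc9 (gene ID 85308, chr14:55581516-55585302) was the least abundant subunit, at 5.61, 6.75, 4.07 and 5.07 FPKM with miR-Ctrl and 6.93, 5.57, 6.64 and 6.56 with miR-204. It had the largest positive estimate of the 9, 0.23 ± 0.13 (SE), interval -0.065 to 0.53 (adjusted p = 0.665 by limma), with pair 2 alone running the other way. Without both replicate 2 libraries the means were 4.92 ± 0.785 and 6.71 ± 0.196 (SD, n = 3 each). The ratio of Emc8 to Emc9 FPKM was 1.36, 1.13, 1.76 and 1.38 with miR-Ctrl and 1.11, 1.44, 1.15 and 1.10 with miR-204, so the groups overlapped.

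**Figure D3:**
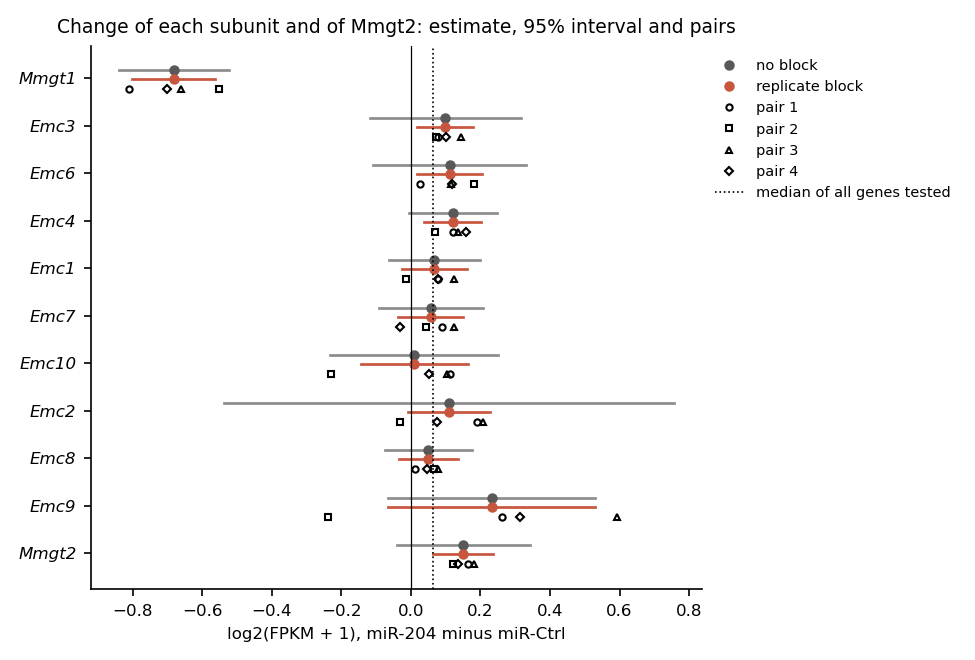
Difference in log2(FPKM + 1), miR-204 minus miR-Ctrl, for the 10 EMC genes and Mmgt2, as estimate and 95% interval without the block (grey) and with it (red), with the 4 pairs as open markers and the median of all genes as a dotted line. Mmgt1 lies at -0.68, and no interval of the others reaches below -0.54.

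Within the EMC transcript pool, Mmgt1, the gene chosen for its difference, held a smaller share with miR-204. Summed FPKM of the 10 genes was 328 ± 32.6 with miR-Ctrl and 341 ± 23.3 with miR-204 (SD, n = 4 each), and the groups overlapped. Mmgt1 made up 3.79% ± 0.399 of that sum with miR-Ctrl and 2.15% ± 0.136 with miR-204 (SD, n = 4 each). Set against the geometric mean of the other 9 in the same library, Mmgt1 stood at 53.1%, 42.7%, 51.3% and 55.4% with miR-Ctrl and at 26.4%, 28.2%, 26.8% and 30.0% with miR-204. These ratios rest on the gene chosen for its difference and are a description.

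In miR-Ctrl the order by mean FPKM was Emc7 at 73.9, Emc4 at 57.6, Emc10 at 52.7, Emc3 at 45.6, Emc2 at 40.9, Emc6 at 23.05, Mmgt1 at 12.4, Emc1 at 9.07, Emc8 at 7.34 and Emc9 at 5.38. The ranges of Emc4 and Emc10, of Emc10 and Emc3, and of Emc3 and Emc2 overlapped, and those of the other neighbours did not. Mmgt1 ranked 7 of 10 in each miR-Ctrl library. With miR-204 it ranked 9 in replicates 1 to 3 and 8 in replicate 4, and its range overlapped those of Emc8 above it and Emc9 below it. Relative to its partners in the core, Mmgt1 stood at 0.273 ± 0.0318 of Emc3 and 0.539 ± 0.0514 of Emc6 with miR-Ctrl, and at 0.151 ± 0.00783 and 0.295 ± 0.0189 with miR-204 (SD, n = 4 each).

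Mmgt2 (gene ID 216829, chr11:62648664-62666354), the paralog of Mmgt1, has an annotated 3′ UTR of 37 bases with no match to the seed. It measured 6.81, 7.08, 5.63 and 6.44 FPKM with miR-Ctrl and 7.74, 7.79, 6.51 and 7.17 with miR-204, higher in each pair with overlapping groups. The log2 difference was 0.15 ± 0.083 (SE) with an adjusted p of 0.665 by limma. With the block it passed the threshold as a rise (adjusted p = 0.0398), and with the block and centred libraries it did not (adjusted p = 0.180). The ratio of Mmgt1 to Mmgt2 was 1.97, 1.69, 2.01 and 1.99 with miR-Ctrl and 0.930, 1.01, 1.04 and 1.05 with miR-204. Neither gene has a stretch of 100 or more bases at 95% identity with another gene, the other included.

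**Figure D4:**
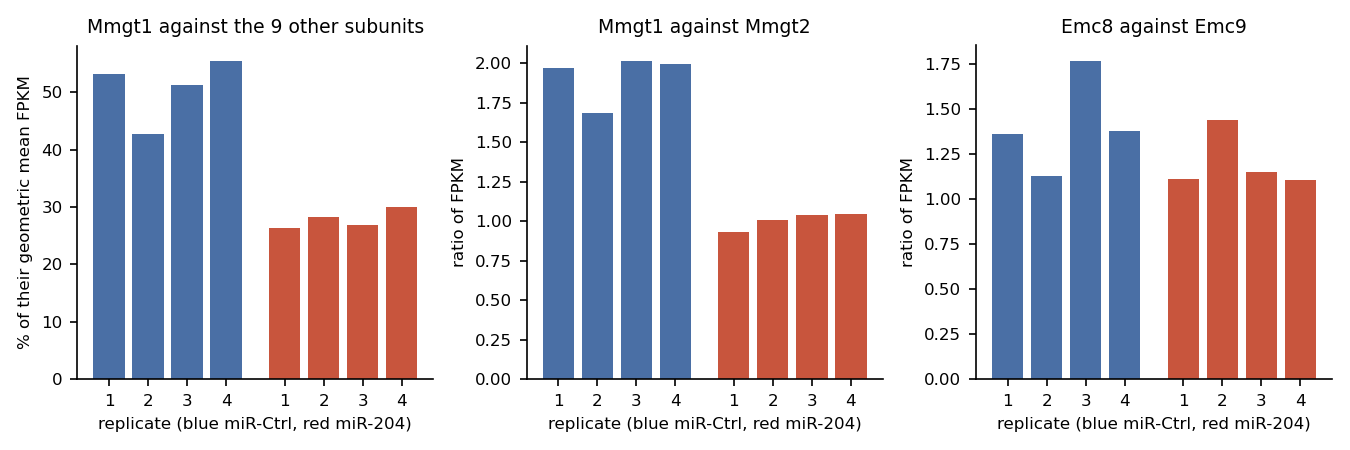
Bars per library of Mmgt1 as a percentage of the geometric mean FPKM of the 9 other subunits, of the Mmgt1 to Mmgt2 ratio and of the Emc8 to Emc9 ratio, in miR-Ctrl (blue) and miR-204 (red) replicates 1 to 4. Means of the Mmgt1 measures were 50.6% and 27.9% in the first panel and 1.92 and 1.01 in the second, without overlap, whereas the Emc8 to Emc9 ratio overlapped between groups.

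The neighbouring machinery of membrane insertion held another gene with a lower level. Of 12 genes of the Sec61 channel and its accessory proteins, limma called 1 lower, Ssr3, beside 0.181% of all genes. It called 0 higher, beside 0.0258%, and the list median was 0.0043. Ssr3 (gene ID 67437) encodes the gamma subunit of the translocon-associated protein complex, which helps chains enter the channel. Its FPKM was 187, 147, 182 and 172 with miR-Ctrl and 115, 105, 106 and 104 with miR-204, without overlap between groups. Means were 172 ± 17.6 and 108 ± 4.85 (SD, n = 4 each), and the log2 difference was -0.67 ± 0.084 (SE), with an adjusted p of 0.0308 by limma and 0.00350 with the block.

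That call depended on the setting where the block was absent. Centred libraries gave an adjusted p of 0.0504 and the table without a filter 0.0510. Leaving out any single library other than miR-Ctrl replicate 2 gave 0.0939 to 0.151, whereas without that library it was 0.0120. Leaving out both libraries of replicate 1, 3 or 4 gave 0.392, 0.339 and 0.575, and those of replicate 2 gave 0.0198. In the paired fits that left out 1 replicate number each, it stayed between 0.00133 and 0.0431. The first of its 8mers printed above lies at chr3:65381765-65381772 and the second at chr3:65380787-65380794, on the minus strand in exon 5 of 5. They start at bases 196 and 1174 of a 3′ UTR of 2313 bases, which also holds a 6mer at base 1464. Sec61a2 of the Sec61 list holds an 8mer too and stood at -0.074 (adjusted p = 0.886 by limma). In the same list Sec61b, a small subunit of the channel, stood at 0.16 (adjusted p = 0.721 by limma, 0.0409 with the block). It was 1 of 12 called higher with the block, beside 12.4% of all genes, and with the block and centred libraries it was not called (adjusted p = 0.153).

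The other routes into the membrane gave no call without the block, where limma called 0.181% of all genes lower and 0.0258% higher. With the block those shares were 2.83% and 12.4%. For the signal recognition particle and its receptor, limma called 0 of 10 in both fits, with a median of -0.0021. An unadjusted p under 0.05 was found for 0 of 10 without the block and 3 of 10 with it, with no share of all genes counted. With the block and centred libraries, a fit that called 4.32% of all genes lower and 4.99% higher, 1 of 10 was called lower, Srp19 (-0.18, adjusted p = 0.0393). Srp14 and Srpr, the most abundant of them, stood at 0.12 (adjusted p = 0.638) and 0.034 (adjusted p = 0.947). The 3′ UTR of Srpr holds a 7mer-m8, and that of Srp19 holds no match. For the 7 genes of the GET pathway of tail-anchored proteins the median was 0.062, and limma called 0 without the block, where 1 had an unadjusted p under 0.05, and 1 lower with it, beside 2.83% of all genes. Wrb, a subunit of the membrane receptor of that pathway, averaged 7.49 ± 0.890 and 6.35 ± 0.423 FPKM (SD, n = 4 each). The log2 difference was -0.20, with an adjusted p of 0.553 by limma and 0.0362 with the block. Wrb was lower with miR-204 in 4 of 4 pairs. Its 3′ UTR holds a 7mer-m8, the best match in 8.45% of the tested genes with a 3′ UTR. Sgta of the same list holds one too and stood at 0.062 (adjusted p = 0.867 by limma). With the block and centred libraries Get4, a cytosolic factor of the same pathway, was called lower as well (-0.17, adjusted p = 0.0434). The Get4 3′ UTR also holds a 7mer-m8. Caml of the GET list stood at -6.2e-06 (adjusted p = 0.9999 by limma).

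The multipass translocon, a set of factors that joins the Sec61 channel for proteins with many membrane spans, had 0 of 7 called by limma in both fits. Of all genes, 0.181% were called lower and 0.0258% higher without the block, and 2.83% and 12.4% with it. An unadjusted p under 0.05 was found for 0 of 7 in either fit, and the list median was 0.024. The most abundant members of the list, Tmem147 and Nomo1, stood at 0.040 and 0.0081. Both signs turned with centred libraries, to -0.024 and -0.056. Tmem208, the gene listed for the SND pathway, stood at 0.11 (adjusted p = 0.720 by limma).

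Among genes for reported client proteins of the EMC, 3 passed the filter and were tested. Without the block limma called 0 of 3, beside 0.181% of all genes called lower and 0.0258% called higher. In that fit 2 of 3 had an unadjusted p under 0.05, Fdft1 above 0 and Soat1 below 0. The share of all genes under it was not counted. With the block limma called 1 of 3 lower, beside 2.83% of all genes. The list median was 0.090. The one called was Soat1, an enzyme that esterifies cholesterol, at 29.7 ± 2.70 with miR-Ctrl and 24.8 ± 3.14 FPKM with miR-204 (SD, n = 4 each). Its log2 difference was -0.26, lower in 4 of 4 pairs, with an adjusted p of 0.531 by limma and 0.0175 with the block. With the block and centred libraries it was -0.32 (adjusted p = 0.00956), in a fit that called 4.32% of all genes lower. Fdft1, which makes squalene, stood at 0.39 (adjusted p = 0.355 by limma, 0.0700 with the block), and Tmem97 at 0.090 (adjusted p = 0.878 by limma). The Soat1 3′ UTR itself holds an 8mer, the best match in 6.65% of the tested genes with a 3′ UTR. RNA levels say nothing of how the Soat1 protein was inserted.

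Since Mmgt1 was first named for magnesium transport, 15 genes of magnesium transporters were listed, of which 13 were tested and Cnnm1 and Trpm6 were below the filter. Without the block limma called 0 of 13, beside 0.181% of all genes called lower and 0.0258% called higher. None of the 13 had an unadjusted p under 0.05 in that fit. With the block limma called 2 higher, beside 12.4% of all genes. These were Mmgt2 and Tusc3, a subunit of the oligosaccharyl transferase. Tusc3 stood at 0.18, higher in 4 of 4 pairs, with an adjusted p of 0.644 by limma and 0.0469 with the block. With the block and centred libraries limma called 0 of 13. The list median was 0.081, against 0.064 for all genes.

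**Figure D5:**
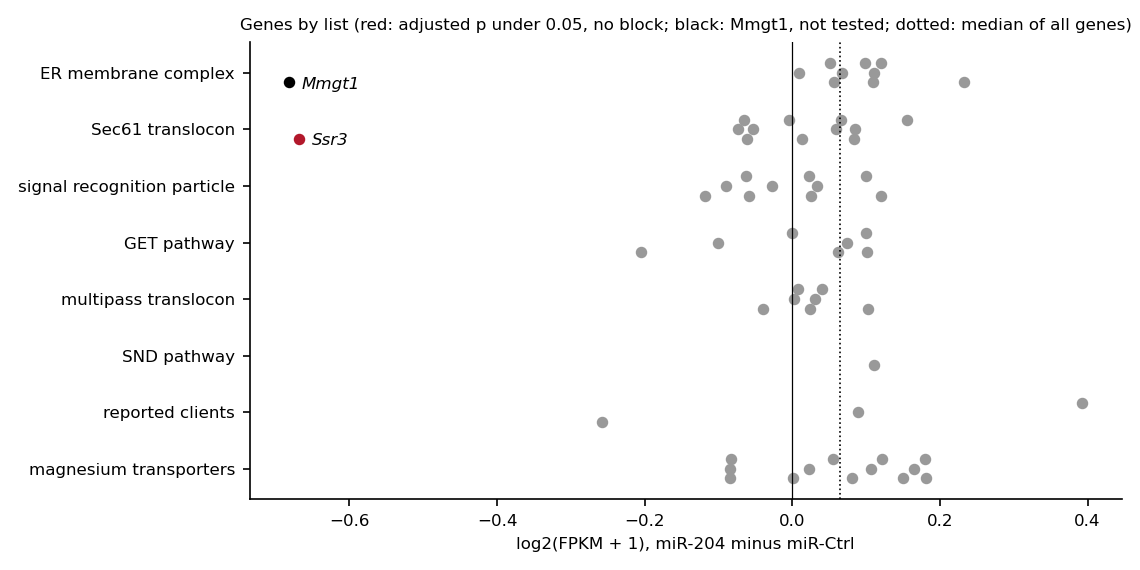
Difference in log2(FPKM + 1), miR-204 minus miR-Ctrl, of the 10 EMC genes and of each tested gene of 7 lists, 1 point per gene, with Ssr3 in red as the one gene of the 7 lists called without the block and Mmgt1 in black. Mmgt1 at -0.68 and Ssr3 at -0.67 stand apart from the other points.

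The genes whose pattern over the 8 libraries was most like that of Mmgt1 were Cyp20a1 (Pearson r = 0.990), Ssrp1 (0.988), Rnf138 (0.986), Rab22a (0.983) and Ttc38 (0.977). These values describe log2(FPKM + 1) in libraries that share replicate levels and the group difference. All 5 held a match to the seed, as did 34.9% of the tested genes with a 3′ UTR, and nothing is read from that count since likeness to Mmgt1 picks genes that were lower with miR-204. The match was an 8mer in Ssrp1, Rnf138 and Ttc38, a 7mer-m8 in Rab22a and a 7mer-A1 in Cyp20a1. Ssr3 reached r = 0.943. For the other EMC subunits r lay between -0.808, for Emc4, and -0.0197, for Emc10. As Mmgt1 was chosen on its group difference, which weighs most in these r, they restate that difference.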

How the data were processed

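The authors deposited 1 table of FPKM per gene and library. Per the labels' protocols, libraries were stranded and made from mRNA. Per the submitters' processing notes, mm10, Cufflinks 2.2.1 and TopHat were used, the last with no version given in the sources used here. FPKM keep no read totals, so no count model was used. Symbols were missing or turned into dates for 158 genes, and list members were matched by gene ID. A mean of 1 FPKM or more was required. The test was the two-sided moderated test of limma 3.58.1 (R 4.3.3) with a trended prior, applied to log2(FPKM + 1), with Benjamini-Hochberg adjustment over 11612 genes and a threshold of 0.05. The code was tested on simulated data. A fit with the replicate number as a block was the alternative: across genes, r between the deviations of same-numbered libraries was 0.44, 0.82, 0.76 and 0.62, and all 8 libraries were closest to their own number, so the pairing comes from the data. The other alternatives were a pseudocount of 0.1, no filter, centred or quantile-normalized libraries, no trend and libraries left out. 3′ UTRs came from GENCODE M21, built on the mm10 assembly, preferring transcripts the table lists. Shared stretches were found with blastn 2.17.0, at 95% identity over 100 bases. Members and lists were chosen with earlier results of these data known. All 10 subunits and Mmgt2 are named. From each list the rule names genes called without the block, otherwise up to 3 called with it, otherwise the 2 of highest mean FPKM. Sec61b, Sec61a2, Srp19, Get4, Sgta, Caml, Fdft1, Tmem97, Hapln1, Comp, Cd68 and Emr1 fall outside the rule and were named after their values were seen. Some items that a list or rule would name are not reported here.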

Additional observations from a re-analysis of the deposited data

Results flagged for a closer look

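In 3 of 60 groups of 4 libraries checked, 1 library lay far from the other 3, with a gap to its neighbour that took up most of the range of the group, past Dixon's 95% critical value. Chance flags about 1 in 20 groups, which is 3 of 60. For Ssr3 with miR-204 the gap was 0.863 of the range, as replicate 1 held 115 FPKM and the others 104 to 106. For the Mmgt1 to Mmgt2 ratio with miR-Ctrl it was 0.865, as replicate 2 stood at 1.69 and the others at 1.97 to 2.01. For the Emc8 to Emc9 ratio with miR-204 it was 0.869, as replicate 2 stood at 1.44 and the others at 1.10 to 1.15.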

How the results depend on the processing

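The Mmgt1 difference stayed between -0.75 and -0.64 over 24 alternatives, and between -0.73 and -0.64 where libraries were left out. With the replicate block it was -0.68, as without it. The median of the other 9 subunits stayed between 0.030 and 0.12, and between 0.038 and 0.12 with libraries left out. Between 0 and 3 of them were called with libraries left out, and 0 in every other alternative. The 3 were called in the paired fit without replicate 2, added after seeing the data, as were quantile normalization with the block and the other paired fits with 1 replicate number left out. In that fit 6 of 9 had an unadjusted p under 0.05, against 0 to 3 in the rest of the alternatives. The block changed no EMC call, and beyond the genes given with both values it changed no other call among the named genes of the lists. That statement does not cover the genes most like Mmgt1 or the cell type markers.

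Genes near 0 turned sign. With centred libraries, with or without the block, Emc7 stood at -0.0073, Emc8 at -0.014, Emc10 at -0.055, Srpr at -0.030, Tmem147 at -0.024 and Nomo1 at -0.056. Quantile normalization, with or without the block, gave -0.010, -0.026, -0.058, -0.044, -0.029 and -0.051 in the same order. With libraries left out, values ran from -0.068 to 0.34 for Emc2, from -0.043 to 0.099 for Emc10, from -0.014 to 0.075 for Srpr, from -0.012 to 0.071 for Tmem147 and from -0.015 to 0.039 for Nomo1. In the paired fits, leaving out replicate 1, 3 or 4 gave -0.025, -0.022 and -0.0045 for Emc10, and leaving out replicate 3 gave -0.012 for Tmem147 and -0.011 for Nomo1. None of these genes was called in the fits where its sign turned, and the cause was not tested. Read totals are unknown, so no counting interval was given, and 4 libraries a group limit the precision of each difference.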
